A study of Mus musculus with 158 samples.

Results

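Neurons cultured from mouse hippocampus were set against neurons cultured from mouse cortex, cell by cell and across all genes. Members were the neurons whose labels give primary culture and either hippocampus or cortex as their source: 8 hippocampal and 13 cortical cells, 21 of the 149 cells of the series (23 of its 158 libraries). Each cell was a single untreated mouse brain cell drawn up with a patch pipette, and its polyA RNA was carried through 3 rounds of antisense RNA amplification before sequencing. The other cells of the series are neurons and other brain cells taken from cultures and acute slices, of which the slice neurons of cortex, CA1 and CA3 are used below, all from strain C57/BL6/N and basecalled in part with bcl2fastq 1.8.4 and in part with bcl2fastq2. All 8 hippocampal cells came from strain C57/BL6 after 15 days in culture and were basecalled with bcl2fastq2. All 13 cortical cells came from strain C57/BL6/N. Of these, cells 1 to 3 were in culture for 6 days, cells 9, 10 and 13 for 10 days, cells 7, 8, 11 and 12 for 13 days and cells 4 to 6 for 15 days. The cortical cells of 6 and 15 days were basecalled with bcl2fastq 1.8.4 and those of 10 and 13 days with bcl2fastq2, so no cortical cell matched the hippocampal cells in both age and basecaller. Region and strain cannot be told apart in the comparisons of cultured cells. The labels name no animal, dam or culture dish, so each region counted as 1 sample: no test was possible, and all differences are descriptions of these cells without p-values.

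Cortex and hippocampus hold excitatory neurons, which load glutamate into vesicles, and a smaller population of inhibitory interneurons, which make GABA with the enzymes encoded by Gad1 and Gad2 and load it with the transporter encoded by Slc32a1. Interneurons of both regions are born outside them, in the ganglionic eminences of the ventral forebrain. Those of the medial eminence express Nkx2-1 and then Lhx6 and include parvalbumin, somatostatin and many neurogliaform cells, while those of the caudal eminence include the Vip and Cnr1 types. Neurons in culture pass from a growth phase, with high levels of cytoskeletal and growth cone genes, to a phase of synapse formation.

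The label neuron was checked on 20 neuron markers. Between 95% and 100% of them were detected in each hippocampal cell (median 97.5%) and between 30% and 95% in each cortical cell (median 60%), where detection means at least 5 counts after every cell was thinned to 1000000 counts. Several libraries stood apart. Cortical cells 6, 7 and 11 had more astrocyte than neuron markers detected, 65% to 90% of 20 astrocyte markers against 60% to 75% of the neuron markers, and cell 4 had 80% of each. Cortical cells 1, 2, 9 and 13 had only 1178 to 1421 genes detected, against 3428 to 6843 in the other cortical cells and 5265 to 9402 in the hippocampal cells. The titles of hippocampal cells 2 and 3 end in D and those of the other 6 in S, and the titles of cells 1 and 2, and of cells 3 and 4, differ in nothing else. No label explains these letters. If each such pair came from 1 neuron, the hippocampal group holds 6 neurons. The D cells had the fewest genes detected, 5265 and 5605, and the highest Map2, a dendritic microtubule protein, at 1402 and 2421 counts scaled to a library total of 1000000 (CPM) against 181 to 741 CPM in the S cells. Cortical cell 5 is the sum of 2 libraries with titles starting in J6 whose counts correlated with r of 0.989 on log2 CPM. Total counts ran from 4654244 to 21214980 in hippocampal cells and from 2953361 to 34292582 in cortical cells. Across the 13485 measured genes, pairs of hippocampal cells correlated with a median r of 0.666 (28 pairs), pairs of cortical cells with 0.31 (78 pairs), and pairs across the regions with 0.416 (104 pairs). These values describe cells that share age and basecaller in hippocampus but differ in both in cortex, with unequal depth in each region.

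All 8 hippocampal cells carried the transcripts of GABA neurons. Gad1 ran from 4297 to 11974 CPM in them, with a median of 8250.0 CPM. In cortex, Gad1 reached 6449 CPM in cell 8, 3534 in cell 3, 2132 in cell 10, 1885 in cell 12, 970 in cell 5 and 290 in cell 13, and the other 7 cells had 0.209 to 23.4 CPM. A threshold of 50 CPM of Gad1 therefore separated 6 cortical cells, called Gad1 cortical cells below, and the values that lie nearest to it are the 290 CPM of cell 13 and the 23.4 CPM of cell 11. Gad2 ran from 1314 to 6812 CPM in hippocampal cells and reached 2148 CPM in cortical cell 8, with 2.03 to 644 CPM in the other 5 Gad1 cortical cells. Slc32a1 was at 493.1 to 1283 CPM in hippocampal cells and at 407 to 883 CPM in Gad1 cortical cells, with the exception of cell 13, which had no count of it. Cortical cell 11, just under the threshold, had 111 CPM of Slc32a1 and cortical cell 1 had 109 CPM of Gad2. The 2 regions overlap for all 3 genes, and every hippocampal cell sat within or above the range of the Gad1 cortical cells.

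The genes that load glutamate were near 0 in both regions. Slc17a7, the vesicular glutamate transporter of most cortical and hippocampal excitatory neurons, was at 102 CPM in hippocampal cell 2 and 38.5 CPM in cortical cell 4. Slc17a8 reached 31.4 CPM in hippocampal cell 6, and Slc17a6 stayed at or under 1.15 CPM in all 21 cells. None of the 7 cortical cells without Gad1 thus had more than 38.5 CPM of any of these 3 transporters, and their transmitter type was not identified from these genes.

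**Figure D1:**
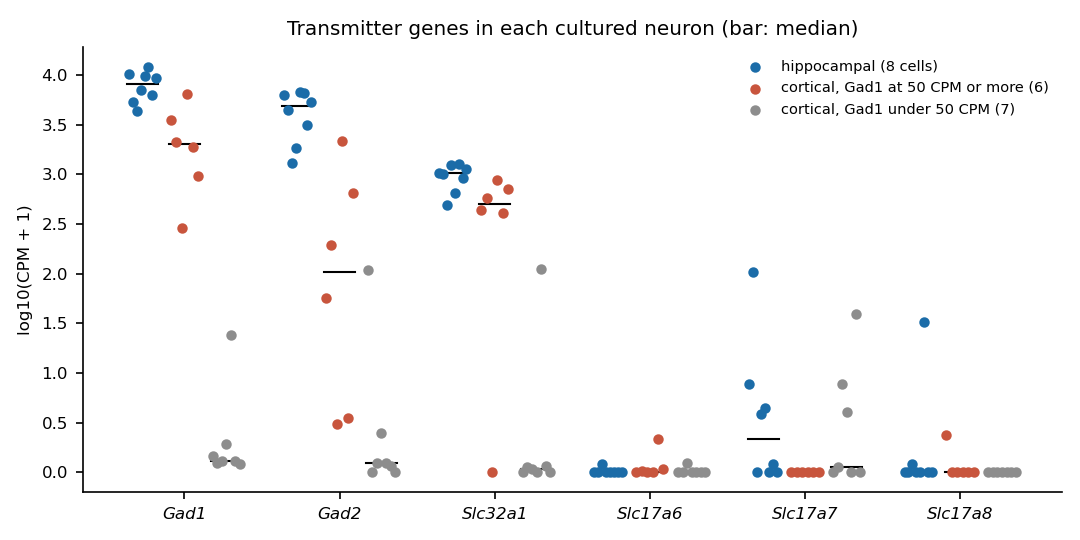
Levels of transmitter genes in each cell, as log10(CPM + 1) on the vertical axis; each point is 1 cell, with hippocampal cells in blue, the 6 Gad1 cortical cells in red and the other 7 cortical cells in grey. The 8 hippocampal cells lie at 4297 CPM of Gad1 or above, and the glutamate transporter genes lie near 0 in nearly all cells of both regions.

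Of the other genes of GABA handling, Abat, which breaks GABA down, was at 325 to 838 CPM in hippocampal cells and at 7.52 to 467 CPM in Gad1 cortical cells (log2 ratio of summed CPM 1.92). Slc6a11, an uptake transporter mostly of astrocytes, went the other way, from 0 to 27.04 CPM in hippocampal cells and at 131 CPM in cortical cells 4 and 5 (log2 ratio -1.70 over all cortical cells). Ratios are hippocampal over cortical, with 1 CPM added to each summed level. Of the 6 genes of this list, 5 were at least 2-fold higher against all cortical cells, where 30.3% of all measured genes were, and 1 was at least 2-fold lower, where 25.3% were. The median log2 ratio was 2.47. Against Gad1 cortical cells, which were chosen by a member of this list, 4 were higher and 1 was lower, with a median of 1.81 (39.5% and 21% of all genes).

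These counts need the background of all genes. Of 13485 genes measured against all cortical cells, 30.3% were at least 2-fold higher and 25.3% at least 2-fold lower in the hippocampal cells, with a median log2 ratio of 0.15. Against the Gad1 cortical cells, 39.5% of 12298 genes were higher and 21% lower, with a median of 0.49. The split moved with the scaling: against all cortical cells, 4092 genes were higher and 3410 lower in summed CPM, 2572 and 5029 with TMM factors, 1425 and 6965 with DESeq2 size factors, and 7065 and 674 in the difference of mean log2 levels of the cells. Against Gad1 cortical cells the same counts were 4856 and 2582, 3486 and 4178, 2677 and 5548, and 6727 and 730. The median of all genes moved with them, to -0.40, -1.09 and 1.11 against all cortical cells and to -0.13, -0.72 and 1.18 against Gad1 cortical cells. Lists are therefore also given relative to this median, over these scalings and the mean of the cells' CPM. A mean of 52.9% of hippocampal and 28.9% of cortical cells detected a measured gene, which moves with the numbers of genes per cell above, and the part of this gap in any result was not tested. Without cortical cells 6, 7 and 11 the counts against all cortical cells were 4720 higher and 2754 lower, and without the D cells 3913 and 3407. Counting error was small beside the spread of cells: at 10 CPM the exact Poisson 95% interval runs from 6.5% below to 6.84% above the value in the hippocampal sum and from 4.24% below to 4.38% above in the cortical sum. It covers counting error only, since amplified reads are not independent molecules. A gene seen in 8 of 8 cells has an exact binomial (Clopper-Pearson) 95% interval of 63.1% to 100%, and one seen in 0 of 13 cells has an upper bound of 24.7%. These bounds take the cells as independent, which the labels do not establish, and do not extend to other animals or cultures.

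Genes of interneuron classes were read in each cell, in the hippocampal and the Gad1 cortical cells first. Lhx6, the factor of medial eminence interneurons, had counts in all 8 hippocampal cells, from 12.7 to 422 CPM with a median of 154 CPM. Among cortical cells it was at 264 CPM in cell 8 and at 0 in the other 12. Nkx2-1, which acts upstream of Lhx6, was at 23.2 to 105 CPM in hippocampal cells 1 to 5 and at 0 in cells 6 to 8 and in every cortical cell. Maf, a factor of the same lineage, was at 66.4 to 228 CPM in hippocampal cells, and among Gad1 cortical cells only in cell 8 (110 CPM) and cell 10 (58.5 CPM). Cortical cell 8 thus shared Lhx6 and Maf with the hippocampal cells, and it was also the cortical cell with the highest median correlation with them (r of 0.652). The whole list of medial eminence factors went both ways. Of 9 measured against Gad1 cortical cells, 5 were at least 2-fold higher and 3 lower, beside 39.5% and 21% of all genes. Their log2 ratios ran from -2.88 to 4.75, with a median of 1.78.

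Peptide genes divided the hippocampal cells further. Npy, a peptide of neurogliaform and other interneurons, ran from 221 to 7210 CPM (median 1657) and was highest, at 2530 CPM or above, in cells 1, 5, 7 and 8. In cortical cells it was at 478, 293, 99.1 and 70.2 CPM in cells 6, 8, 4 and 7 and at or near 0 in the others. Pnoc, which encodes nociceptin, was at 69.7 to 779 CPM in hippocampal cells and, among cortical cells, at 505 CPM in cell 8 and 148 CPM in cell 10. Pvalb, the calcium buffer of fast-spiking interneurons, was at 2802 CPM in hippocampal cell 3 and 1020 CPM in cell 4, and at 112 CPM or less in the other 6. Tac1 was at 1463, 200 and 142 CPM in hippocampal cells 7, 8 and 2. Sst was at or near 0 in all 21 cells, at most 4.69 CPM. Vip was at 1204 CPM in cortical cell 10 and at most 1.74 CPM elsewhere.

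The Gad1 cortical cells differed among themselves by the same genes. Cell 10 carried caudal eminence genes, with 2791 CPM of the cannabinoid receptor gene Cnr1 and 145 CPM of Npas1. Cells 3, 5, 12 and 13 carried Meis2, at 1330 to 3599 CPM, and Tshz1, at 719 to 4573 CPM, which are transcription factors of lateral ganglionic eminence derivatives among other cells. Meis2 was not particular to them. Of all 13 cortical cells, with or without Gad1, 10 detected it, with a median of 1219 CPM and a highest value of 3979 CPM. Foxp2 was at 74.02, 1039 and 2507 CPM in cells 3, 5 and 12, and Calb2 was at 1196 CPM in cell 13. In hippocampal cells Meis2 was at 4.24 CPM or less and Foxp2 at 0.308 CPM or less, and Tshz1 reached 141 CPM. Of 9 medial eminence factors measured, 4 were at least 2-fold higher and 3 at least 2-fold lower against all cortical cells (median log2 ratio 0.60, 2.49 without cortical cell 10, -0.18 with TMM and -1.04 with DESeq2 factors), where 30.3% and 25.3% of all genes were. Log2 ratios of the medial eminence factors ran from -2.57 to 4.75. Of 10 caudal eminence genes, 2 were higher, Reln among them with a log2 ratio of 10.72, and 5 lower (median -1.26). This last median was -0.09 and -0.55 without cortical cells 10 and 5, -1.92 and -2.15 without hippocampal cells 5 and 6, and it was 0.60 against the cortical cells of 15 days. Of 13 peptide and calcium-binding genes, 7 were higher and 3 lower (median 2.59, and 1.91 and 1.90 without hippocampal cells 1 and 8).

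**Figure D2:**
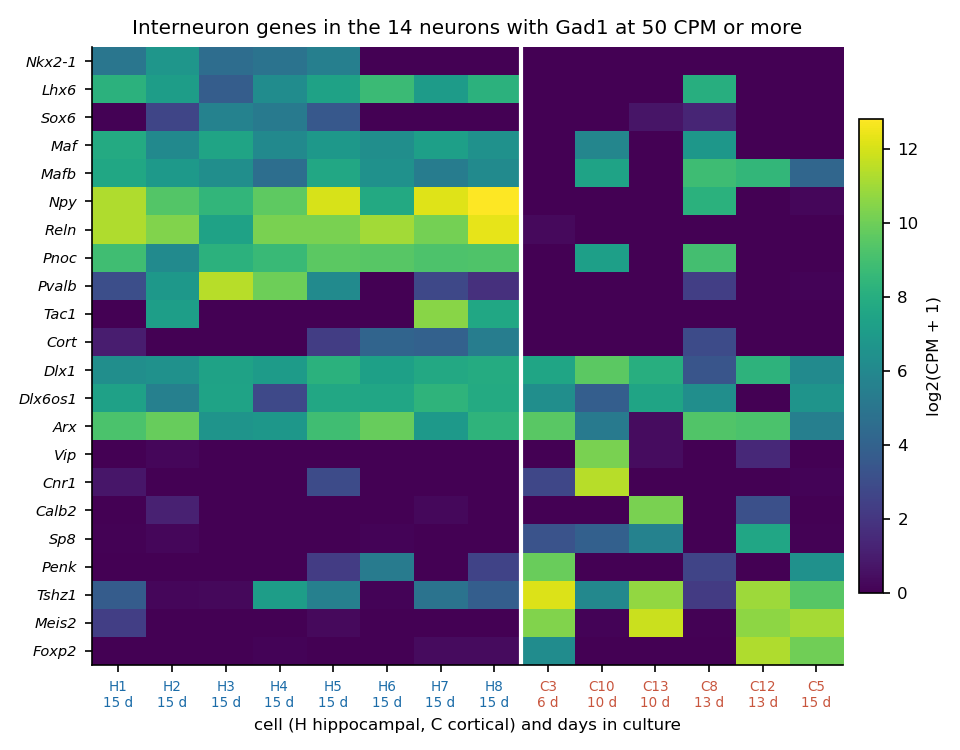
Interneuron genes (rows) in each cell (columns), coloured by log2(CPM + 1); the columns are the 8 hippocampal cells (H) and the 6 Gad1 cortical cells (C), with their days in culture, and the genes shown were picked after their values were seen. Reln, Npy and Lhx6 fill the hippocampal columns, while Meis2 and Tshz1 fill the columns of cortical cells 3, 5, 12 and 13.

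Reln, which encodes the secreted glycoprotein reelin (chr5:21884454-22344702, minus strand, GRCm38), had the largest log2 ratio of the named genes. It was at 168 to 5253 CPM in hippocampal cells, with a median of 1275 CPM, and at most at 3.93 CPM in cortical cells, where 1 cell detected it. The lowest hippocampal cell, D cell 3, was still above every cortical cell, and the other 7 lay at 1137 CPM or above. The summed level was 2042 CPM (exact Poisson 95% interval 2032 to 2051) against 0.21 CPM (0.153 to 0.282), a log2 ratio of 10.72. Against Gad1 cortical cells, with 2 counts in all, the ratio of summed CPM was 126389 with a counting interval of 34988 to 1043644. The genes named against all cortical cells passed the same 2-fold difference in summed CPM, in the mean of the cells' CPM and against the cortical cells of 15 days and against those basecalled with bcl2fastq2, and were ranked by the share of cell pairs in which the hippocampal cell was higher.

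The other 9 genes named as higher were higher in the hippocampal cell in 100% of the 104 cell pairs, so their ranges do not overlap. They were Tstd3, Prdx3, Hdac9, Lgi2, Rell2, Flrt2, Lbh, Lpgat1 and Mecr, with log2 ratios from 4.58 (Mecr) to 6.41 (Tstd3). Prdx3, a peroxiredoxin of mitochondria, was at 218 to 647 CPM in hippocampal cells and at most 68.4 CPM in cortical cells (log2 ratio 5.93). Flrt2, a membrane protein that guides migrating neurons and axons, was at 235 to 1002 CPM against 0 to 176 CPM. Its log2 ratio of 5.17 was 9.49 without cortical cell 8, the only cortical cell that detected it. Hdac9, a class IIa histone deacetylase, was at 54.6 to 344 CPM against 0 to 45.1 CPM (log2 ratio 5.45, and 7.02 without cortical cell 1). Lgi2, a secreted synaptic protein, was at 53.3 to 1152 CPM against 0 to 40.1 CPM (log2 ratio 5.22, 7.195 without cortical cell 10 and 4.62 without hippocampal cell 7). Lbh was at 86.1 to 1237 CPM against 0 to 67.8 CPM (log2 ratio 4.98, 6.30 without cortical cell 6 and 4.28 without hippocampal cell 7). Mecr, of mitochondrial fatty acid synthesis, was at 13.7 to 120 CPM against 0 to 7.67 CPM. Leaving out hippocampal cell 2, cell 4, or cortical cells 3 and 6 moved Tstd3 to 5.73, Lpgat1 to 4.18, Prdx3 to 6.58 and Mecr to 5.25.

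In all, 55 genes (0.408% of 13485) were higher in every hippocampal than in every cortical cell, and 0% were lower in every one. List members among the 55 were Reln, Snap25, Cacnb2, Slc4a10 and Ndufa4. Snap25, a SNARE protein of synaptic vesicle release, was at 1681 to 2930 CPM in hippocampal cells and at 0.91 to 784 CPM in cortical cells. Cacnb2, a calcium channel subunit, was at 11.1 to 117 CPM against 0 to 9.70 CPM. Slc4a10, a bicarbonate transporter of neurons, was at 39.1 to 91.1 CPM against 0 to 23.1 CPM. Rab3c, a vesicle GTPase singled out after its values were seen, had its lowest hippocampal value at 1787 CPM and its highest cortical value at 600.0 CPM. With non-overlap, the gap was wide for Reln and Rab3c and narrow for Napb, whose ranges ended at 634 and 631 CPM. No lowest CPM was required for the 55, so some gaps lay under 1 CPM, as for Gm11978 (0.1885 against 0.06575 CPM).

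**Figure D3:**
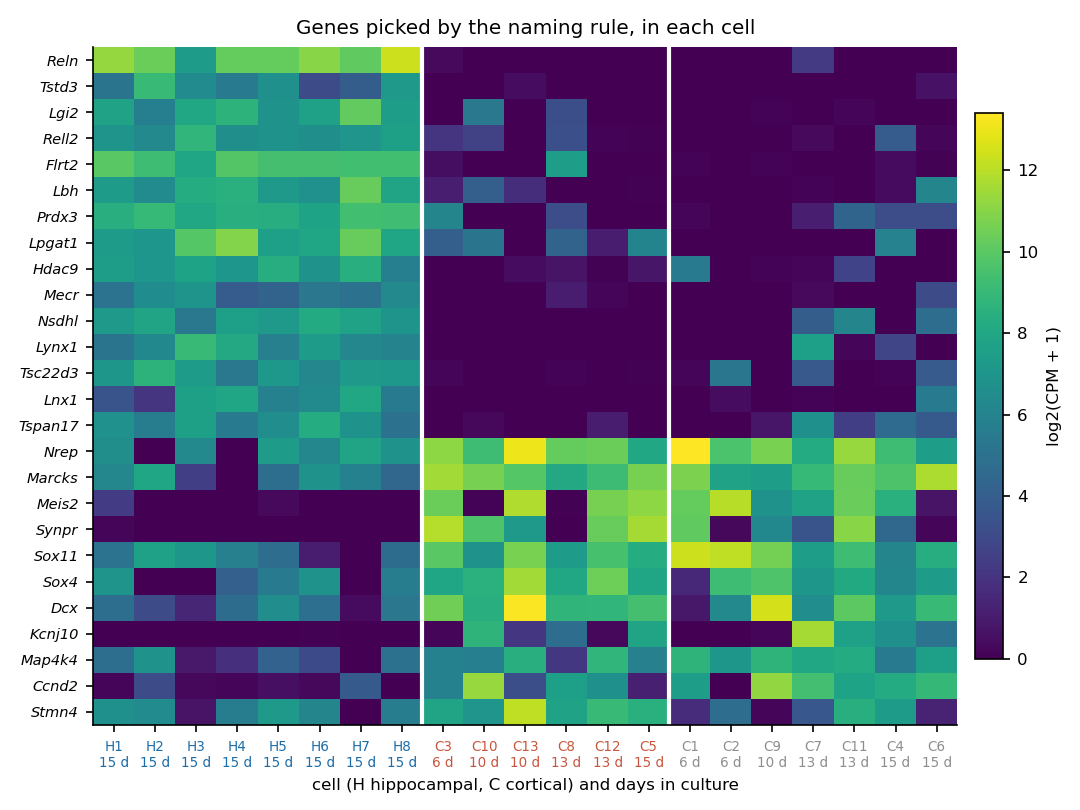
Named genes (rows) in each cell (columns), coloured by log2(CPM + 1), with columns ordered as hippocampal, Gad1 cortical and other cortical cells. Genes named as higher form a filled block over the 8 hippocampal cells, and genes named as lower form a block over the cortical cells with gaps in single cells, such as 0 CPM of Synpr in cortical cell 8.

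Of the 10 genes named as lower in hippocampal cells, 4 (Dcx, Nrep, Sox4 and Sox11) belong to the list of axon growth and immature neuron genes. Dcx, the doublecortin of migrating and growing neurons (chrX:143855842-143933311, minus strand), was at 0.301 to 92.7 CPM in hippocampal cells (median 26.99) and at 0.835 to 10173 CPM in cortical cells (median 445). Only cortical cells 1 and 2, of 6 days, overlapped the hippocampal range. The log2 ratio was -4.85 against all cortical cells (-4.20 without cortical cell 9), -4.55 against Gad1 cortical cells and -4.01 against the cortical cells of 15 days. The transcription factor genes Sox11 and Sox4, both active in immature neurons, were at 0 to 204 and 0 to 121 CPM in hippocampal cells. In cortical cells they were at 67.99 to 5366 and 1.82 to 2997 CPM, with log2 ratios of -4.37 and -3.01. Nrep, of growing axons, was at 0 to 230 CPM against 180 to 10848 CPM, with a log2 ratio of -4.06 that was -1.64 against the cortical cells of 15 days and -3.38 without cortical cell 1. Marcks, a substrate of protein kinase C at the membrane, was at 0 to 242 CPM against 178 to 3401 CPM (log2 ratio -4.24). Ccnd2, a cyclin of the G1 phase, was at most at 13.0 CPM in hippocampal cells and reached 2579 CPM in cortical cells (log2 ratio -7.85, -6.87 without cortical cell 10 and -8.68 without hippocampal cell 7).

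The remaining genes named as lower were Meis2, Synpr, Kcnj10 and Map4k4. Meis2 had a log2 ratio of -8.80 (-9.78 without hippocampal cell 1, which held most of its hippocampal counts). Synpr, a synaptic vesicle protein, was at most at 0.189 CPM in hippocampal cells and reached 3802 CPM in cortical cells. With 4 hippocampal counts, its summed level was 21709 times higher in cortical cells (counting interval 8479 to 79676). Kcnj10, the potassium channel of astrocytes, had 1 count in all hippocampal cells and reached 3068 CPM in cortical cell 7, and its log2 ratio of -8.09 was -6.95 without that cell. Map4k4 was at 0 to 118 CPM against 3.47 to 453 CPM (log2 ratio -3.05).

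The list of 16 axon growth and immature neuron genes had 10 members at least 2-fold lower, against 25.3% of all genes, and 3 at least 2-fold higher, with a median log2 ratio of -1.94. Relative to the median of all genes it lay between -2.58 and -2.09 over the scalings. Tuba1a, the alpha tubulin of growing neurites, was at 2569 to 10264 CPM in hippocampal cells and at 5090 to 98735 CPM in cortical cells (log2 ratio -1.73). Stmn1, which destabilises microtubules, was at 6.72 to 277 CPM against 171 to 4396 CPM (log2 ratio -2.82). The 3 members that were higher were Gap43, of growth cones (log2 ratio 1.15), Basp1 (1.11) and Tubb3 (1.5). Gap43 was at 618 to 1404 CPM in hippocampal cells and at 0 to 1884 CPM in cortical cells. Summed over the list, hippocampal cells had 7746 to 16918 CPM and cortical cells 9857 to 148930 CPM, and only cortical cells 7 and 11 overlapped the hippocampal range. The 6 Gad1 cortical cells, at 19657 to 55693 CPM, lay above every hippocampal cell. Against the cortical cells of 15 days alone, the age of the hippocampal cells, the median was -0.97, and against those basecalled with bcl2fastq2 it was -1.46.

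**Figure D4:**
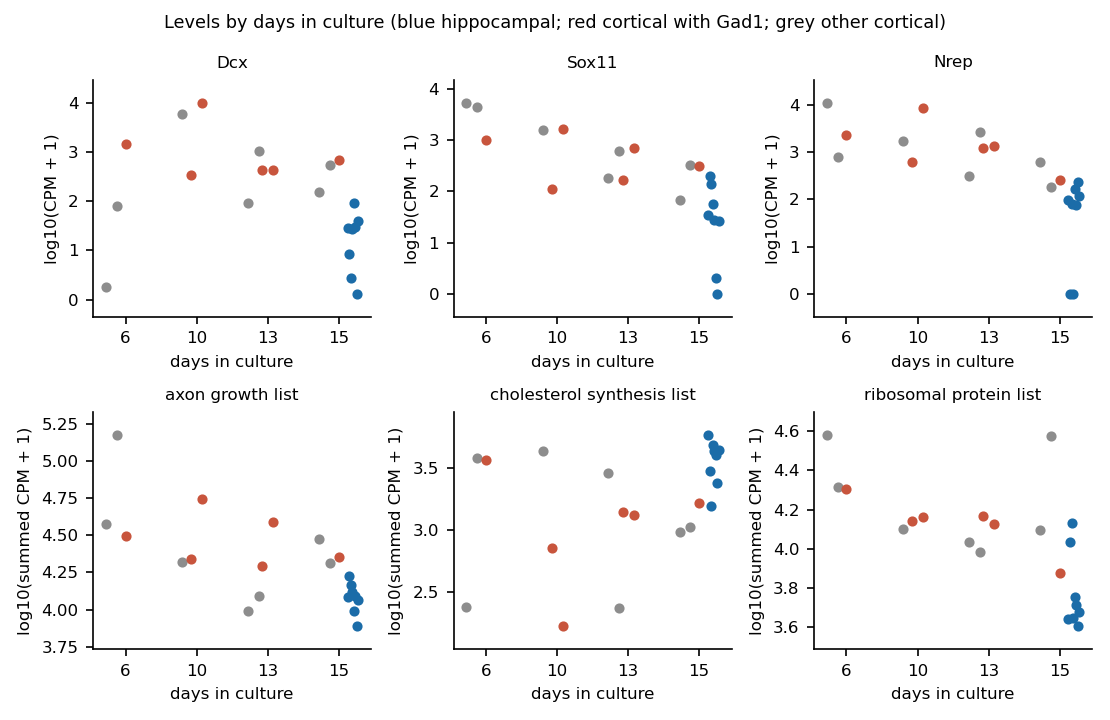
Dcx, Sox11, Nrep and the summed levels of 3 lists by days in culture, as log10(CPM + 1); blue points are hippocampal, red points Gad1 cortical and grey points other cortical cells. The hippocampal cells, all of 15 days, lie below the cortical cells of 15 days for Dcx and overlap them for Nrep, and for the cholesterol synthesis list all but D cell 3 lie above the cortical cells of 15 days.

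Set against Gad1 cortical cells only, 196 genes (1.59% of 12298) were higher in every hippocampal cell and 9 (0.0732%) were lower in every one. The 9 were Dcx, Nrep, Sox4, Stmn1, Tuba1a, Marcks, Ncam1, Celf2 and Kcnj10, the first 5 of them from the axon growth list. No lowest CPM was required for the 196 or the 9. For Kcnj10, with 1 hippocampal count, the ranges ended at 0.0744 CPM in hippocampal and 0.135 CPM in Gad1 cortical cells. Only 50% of the Gad1 cortical cells detected it, so its place among the 9 was not resolved from counting error. Gaps were narrow for Nrep (229.7 against 249.7 CPM) and Celf2 (868.8 against 988 CPM). Dcx was at 349 CPM or more in each Gad1 cortical cell and at 92.7 CPM or less in each hippocampal cell. Stmn4, another stathmin, was named as well and was at 0 to 149 CPM against 125 to 4494 CPM (log2 ratio -2.44). Ccnd2 had a log2 ratio of -7.94 but of 0.47 against cortical cell 5 alone, the single Gad1 cell of 15 days, of -4.87 without cortical cell 10 and of -8.78 without hippocampal cell 7. The axon growth list had 10 of 16 members lower and 1 higher, against 21% and 39.5% of all genes, with a median of -1.58 (-0.70 against cortical cell 5).

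Genes named against Gad1 cortical cells were not required to pass at 15 days or with 1 basecaller. Those named as higher, besides Reln, Hdac9 and Tstd3, were Nsdhl, Lynx1, Lnx1, Tsc22d3 and Tspan17. Lynx1, which binds nicotinic acetylcholine receptors, was at 34.5 to 544 CPM in hippocampal cells with no count in the 6 Gad1 cortical cells, so its level was at least 5150-fold higher, taking 3 counts over the group as the floor. Cortical cell 7 had 189 CPM of it. Lnx1, a ubiquitin ligase that binds Numb, was at 3.22 to 265 CPM, also with no count in the Gad1 cortical cells, and at least 4054-fold higher by the same floor. Both bounds cover counting error only, and missed transcripts were not told apart from absent ones. Tsc22d3, induced by glucocorticoids, was at 39.9 to 398 CPM against at most 0.135 CPM. Tspan17, a tetraspanin, was at 30.9 to 310 CPM against at most 1.05 CPM. Tstd3 had 2 cortical counts and a ratio of 5517 (counting interval 1527 to 45563).

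Nsdhl is an enzyme of cholesterol synthesis. It was at 40.4 to 297 CPM in hippocampal cells and had 1 count in the Gad1 cortical cells, a ratio of 22245 with a counting interval of 3992 to 878697. Of the other cortical cells, cells 6, 7 and 11, those with more astrocyte than neuron markers detected, had 14.2 to 67.3 CPM of it. Gad1 cortical cells 5 and 12, with 80% and 70% of the astrocyte markers detected, had at most 0.0329 CPM. Nsdhl is not in the list itself, which held 16 genes. Neurons and glia make sterols in this pathway from acetyl-CoA, and the membrane-bound factor SREBP2 switches the genes on together when sterols are low. Of the 16 genes, 13 were at least 2-fold higher and 1 at least 2-fold lower, against 30.3% and 25.3% of all genes, with a median log2 ratio of 2.10. With only the Gad1 cortical cells, 13 were higher and 0 lower, with a median of 2.71 (3.41 without cortical cell 8). Relative to all genes the list lay between 1.42 and 2.97, and between 2.10 and 2.99 against Gad1 cortical cells. Against the cortical cells of 15 days its median was 2.93 and against those basecalled with bcl2fastq2 it was 2.53.

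The 250 bases before the start of 3 of the genes are shown, out of the 10 of 16 list genes with a RefSeq promoter entry and Nsdhl, because they span the pathway (an early enzyme, a regulator and a late enzyme) and each holds a CCAAT box. They are written in the direction of the gene, from RefSeq on build GRCm38.p6, with matches in capitals. The motifs were the CCAAT box, searched as CCAAT on both strands and written ATTGG where it lies on the other strand, and a sterol regulatory element, searched as TCACNCCAC on both strands.
Hmgcs1, chr13:119690101-119690350, plus strand: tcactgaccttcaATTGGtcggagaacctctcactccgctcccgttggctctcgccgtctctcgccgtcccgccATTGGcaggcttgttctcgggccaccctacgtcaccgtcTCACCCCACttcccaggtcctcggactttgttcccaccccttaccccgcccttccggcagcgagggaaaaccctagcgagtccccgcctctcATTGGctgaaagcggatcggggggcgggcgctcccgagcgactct
Insig1, chr5:28071162-28071411, plus strand: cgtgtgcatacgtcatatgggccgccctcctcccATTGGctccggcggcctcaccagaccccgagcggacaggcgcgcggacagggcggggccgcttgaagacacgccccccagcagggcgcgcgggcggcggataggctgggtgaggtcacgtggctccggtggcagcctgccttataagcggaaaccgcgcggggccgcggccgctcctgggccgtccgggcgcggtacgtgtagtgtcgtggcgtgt
Nsdhl, chrX:72918271-72918520, plus strand: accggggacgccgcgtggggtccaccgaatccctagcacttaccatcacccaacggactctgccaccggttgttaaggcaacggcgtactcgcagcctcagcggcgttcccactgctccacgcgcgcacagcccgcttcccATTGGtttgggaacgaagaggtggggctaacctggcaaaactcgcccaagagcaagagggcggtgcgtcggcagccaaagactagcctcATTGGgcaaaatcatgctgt
The Hmgcs1 window holds 3 CCAAT boxes and 1 match to the sterol regulatory element, the Insig1 window 1 CCAAT box and the Nsdhl window 2. All 10 list genes with a promoter entry held a CCAAT box, in 10 of their 13 promoters, against 33.8% of all 32851 promoters of this length. The sterol element was in 1 of the 10 genes and in 1.05% of all promoters. The matches describe letters in these windows and no binding was measured.

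Hmgcs1, which makes the precursor of mevalonate, was at 241 to 1295 CPM in hippocampal cells (median 991) and at 3.51 to 498 CPM in Gad1 cortical cells, with 2790.5 CPM in cortical cell 2 (log2 ratio 2.03). Insig1, which holds SREBP in the endoplasmic reticulum, was at 15.7 to 198 CPM against 0 to 39.9 CPM (log2 ratio 3.97), and no Gad1 cortical cell exceeded 3.22 CPM. Cyp51, a demethylase late in the pathway, was at 186 to 541 CPM against 0 to 58.6 CPM in Gad1 cortical cells, although cortical cell 7 reached 508 CPM. Lss, which closes the sterol ring, was at 0 to 240 CPM and had at most 0.122 CPM in any cortical cell. Mvk was the member that was lower (log2 ratio -1.96), with 5.80 to 137 CPM in hippocampal cells and 4343 CPM in cortical cell 9. The list summed to 1555 to 5804 CPM in hippocampal cells and to 167 to 4353 CPM in cortical cells, and cortical cells 2, 3, 5, 7 and 9 reached the hippocampal range.

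Release genes of the synapse were mostly higher in the hippocampal cells against all cortical cells in summed CPM. Of 25 presynaptic genes 15 were at least 2-fold higher and 2 lower (median log2 ratio 1.18), where 30.3% and 25.3% of all genes were. The summed level of the 25 genes was at 10614 to 13407 CPM in hippocampal cells and at 33.1 to 10111 CPM in cortical cells, without overlap. With DESeq2 factors and no reference to the median of all genes, the list median was -0.45, that of postsynaptic genes -0.50, that of AMPA receptor genes -0.40 and that of potassium channels -0.09, so their directions turned with that scaling. The same factors gave, against Gad1 cortical cells, -0.56 for presynaptic and -0.81 for postsynaptic genes. In the comparison with Gad1 cortical cells, 12 of the 25 presynaptic genes were higher and 3 lower (median 0.92), beside 39.5% and 21% of all genes. Cplx1, a complexin that clamps fusion, was at 1524 to 4144 CPM in hippocampal cells and reached 1876 CPM in cortical cell 8 (log2 ratio 2.62). Vamp1, a vesicle SNARE, was at 24.7 to 851 CPM and at 70.2 CPM in cortical cell 8 with at most 0.962 CPM elsewhere in cortex (log2 ratio 4.82). Unc13a, which primes vesicles, had a log2 ratio of 4.23. Syn3, a synapsin, was lower (log2 ratio -2.25), with 5580 CPM in cortical cell 13. Relative to all genes, the list lay between 0.63 and 2.46, and between 0.16 and 0.93 against Gad1 cortical cells.

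Of 21 postsynaptic scaffold and adhesion genes 11 were at least 2-fold higher and 3 lower (median 1.03, and 1.69 without cortical cell 8). The shares of all genes were 30.3% and 25.3%. Shank1, a scaffold of excitatory synapses, was at 2.88 to 62.3 CPM in hippocampal cells and at most 0.135 CPM in Gad1 cortical cells. Dlg4, which encodes PSD-95, was at 14.6 to 91.0 CPM against 0 to 9.33 CPM in Gad1 cortical cells, while cortical cell 11 had 134 CPM. Baiap2 was lower, with 32.2 CPM in hippocampal cell 2, 0 in the other 7 and up to 197 CPM in cortical cells (log2 ratio -4.70). Against Gad1 cortical cells the direction of this list relative to all genes depended on the scaling, from -0.09 with DESeq2 factors to 1.18 in mean log2 levels.

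Receptor subunits went both ways, beside 30.3% of all genes higher and 25.3% lower against all cortical cells. Gabrb2, a beta subunit of GABA receptors, was at 91.1 to 1236 CPM in hippocampal cells and at 0 to 527 CPM in cortical cells (log2 ratio 2.41). Gabra3 and Gabra4 were lower (log2 ratios -3.01 and -3.20), with at most 14.4 and 0.527 CPM in hippocampal cells. Of 13 GABA receptor subunits 6 were at least 2-fold higher and 4 lower (median 0.58, -0.21 with TMM and -1.07 with DESeq2 factors). Of 14 AMPA receptor genes 7 were higher and 4 lower (median 1.25). Gria2, the subunit that keeps calcium out, was lower (log2 ratio -1.64), at 0.161 to 737 CPM against 0.339 to 3095 CPM. Grin3a, an NMDA receptor subunit, was above 500 CPM in hippocampal cells 1, 6 and 8 and at 0 in cells 3, 4 and 7 (log2 ratio 3.35).

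Voltage-gated potassium channels repolarise the neuron after a spike. Of 17 such genes 9 were at least 2-fold higher and 3 lower (median 1.56, and 2.32 without cortical cell 11), and against Gad1 cortical cells 9 of 15 were higher (median 1.64, and 3.33 and 2.37 without cortical cells 8 and 5). Among all genes, 30.3% were higher and 25.3% lower against all cortical cells, and 39.5% were higher against Gad1 cortical cells. Kcnc1, a Kv3 channel of fast-spiking neurons, was at 49.2 to 1053 CPM in hippocampal cells and at most 103 CPM in cortical cells (log2 ratio 4.00). It was highest in hippocampal cell 4, a cell with Pvalb. Kcna1 was at 211 to 1612 CPM and at 860.0 CPM in cortical cell 8 (log2 ratio 2.32). Among sodium channels, Scn1a was at 0.161 to 405 CPM against at most 56.02 CPM (log2 ratio 4.61). Relative to all genes, the potassium channel list lay between 1.00 and 1.85, and between 0.77 and 1.96 against Gad1 cortical cells.

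Respiratory chain genes lay above the median of all genes against all cortical cells, while their own direction turned with the scaling. Of 28 nuclear genes of the respiratory chain 12 were at least 2-fold higher and 0 lower in summed CPM (median 0.85, 0.06 with TMM and -0.80 with DESeq2 factors). The shares of all genes against all cortical cells were 30.3% and 25.3%. Of the same 28 genes 10 were higher and 0 lower against Gad1 cortical cells, where 39.5% and 21% of all genes were. Ndufa4, of complex IV, was at 778 to 4567 CPM in hippocampal cells and at most 570.4 CPM in cortical cells (log2 ratio 2.91). Cox6a1 was at 483 to 6898 CPM against 0.0768 to 933 CPM (log2 ratio 1.95), and both were highest in D cell 3. With only the Gad1 cortical cells, the direction of the list relative to all genes flipped with the scaling, from -0.06 with DESeq2 factors to 1.05 in mean log2 levels. Of 16 genes that copy or transcribe the mitochondrial genome 9 were higher and 5 lower (median 1.07), and 12 were higher and 3 lower against Gad1 cortical cells (median 1.72, and 2.36 without cortical cell 5). Of 18 glycolysis genes 6 were higher and 2 lower (median 0.24, -0.51 with TMM and -1.37 with DESeq2 factors). The share that was higher was near the 30.3% of all genes. Eno2, the neuronal enolase, was at 157 to 886 CPM against 0 to 242 CPM (log2 ratio 2.97).

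Cytosolic ribosomal protein genes were lower. Of 21 genes 0 were at least 2-fold higher and 16 at least 2-fold lower (median -1.48), with 0 and 13 against Gad1 cortical cells (median -1.23). In the same order of comparisons, 25.3% and 21% of all genes were lower. Rpl7, of the large subunit, was at 150.2 to 713 CPM in hippocampal cells and at 82.1 to 7527 CPM in cortical cells (log2 ratio -2.59). Rpl3 was at 149.8 to 565 CPM against 40.3 to 3096 CPM (log2 ratio -2.59). The list summed to 4012 to 5668 CPM in the 6 S cells, to 10779 and 13588 CPM in the D cells, and to 7503 to 38083 CPM in cortical cells, so only the D cells overlapped the cortical range. Many ribosomal protein genes have near-identical pseudogenes, and how the authors' counting split such reads is not given in the sources used here. Relative to all genes the list lay between -2.05 and -1.36.

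Immediate early genes, which neurons switch on within minutes of activity, were lower in sum, through few cells. Of 13 genes 1 was at least 2-fold higher and 9 lower (median -1.48, and -0.66 without cortical cell 3), beside 30.3% and 25.3% of all genes. Egr1 was at 170.3 CPM in hippocampal cell 2, at 7.64 CPM in cell 5 and at 0.353 CPM or less in the other 6. It was above 100 CPM in 7 cortical cells, with 1697 CPM in cell 3, and at 0 in 4. Arc had no count in any hippocampal cell and 40.05 to 166 CPM in cortical cells 3, 7, 8 and 12. Against the cortical cells of 15 days the median was 0.03, so the direction turned.

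The counts for genes that mark the fields of the hippocampus in the brain depended on the cortical cells used. Of 16 field markers measured, 3 were at least 2-fold higher and 10 lower against all cortical cells (median -1.45), and 5 were higher and 5 lower against those basecalled with bcl2fastq2 (median -0.04). Against all cortical cells, 30.3% of all genes were higher and 25.3% lower. Prox1, of the dentate gyrus, was at 0.602 CPM in hippocampal cell 7 and at 0 in the other 7. Mpped1 was among the 3 that were higher, at 0 to 392 CPM against 0 to 596 CPM (log2 ratio 2.28). Zbtb20 was at most at 93.4 CPM in hippocampal cells and at 515 CPM in cortical cell 7 (log2 ratio -3.65). Pcp4 was at 0 to 736 CPM against 0 to 3066 CPM (log2 ratio -2.55). In the comparison with Gad1 cortical cells, the median of 11 measured markers was -0.02, 1.29 without cortical cell 5 and 0.85 without cortical cell 10.

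The same markers were set beside neurons of acute slices from the same series, 15 of CA1 and 5 of CA3 against 22 of cortex, which share their cortical cells. There 22.6% of 12666 genes were at least 2-fold higher and 39.8% lower in CA1, with a median of -0.37, and 16.9% of 11678 were higher and 53.7% lower in CA3, with a median of -1.30. Of the field markers 9 of 16 were higher in CA1 (median 2.42) and 8 of 15 in CA3 (median 1.36). Zbtb20 had log2 ratios of 3.79 in CA1 and 5.55 in CA3. Cholesterol synthesis genes had medians of -1.77 and -3.04 there, opposite in sign to the cultures. Reln had a log2 ratio of 5.2 in CA1 and of -1.56 in CA3, and the GABA list medians of -0.49 and -6.68. Of the 10 genes named as higher in cultured hippocampal cells, 2 were higher and 4 lower in CA1. Of the 10 named as lower, 1 was higher and 8 were lower in CA1. In CA3, 1 of the genes named as higher was higher and 8 were lower, and of those named as lower 3 were higher and 6 lower. The differences between culture and slice were not tested.

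**Figure D5:**
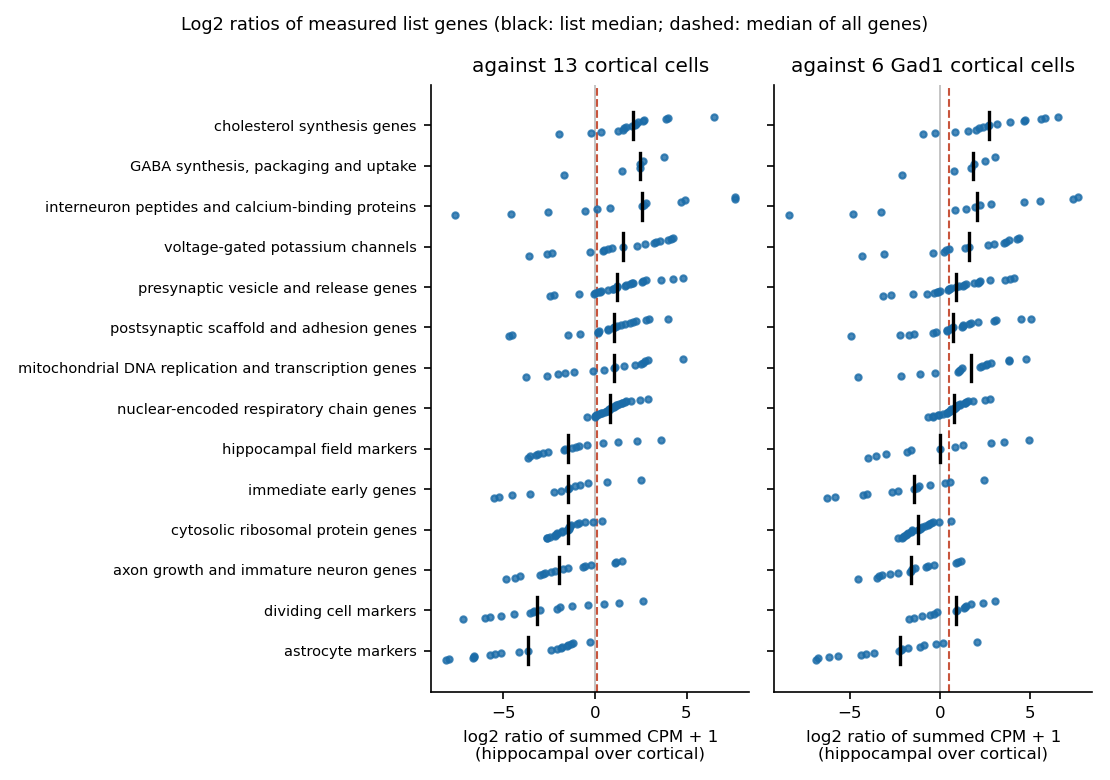
Log2 ratio (hippocampal over cortical, summed CPM with 1 CPM added) of the genes of each list, with 1 point per measured gene, a black bar at the list median and a dashed line at the median of all genes, against all cortical cells (left) and Gad1 cortical cells (right). Cholesterol synthesis lies at 2.10 and 2.71, axon growth at -1.94 and -1.58 and the ribosomal list at -1.48 and -1.23, in the median, beside medians of all genes of 0.15 and 0.49.

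Astrocyte markers were lower in the hippocampal cells, and the medians of microglia and dividing cell markers depended on the cortical cells used. Of all genes, 30.3% were at least 2-fold higher and 25.3% lower against all cortical cells, and 39.5% and 21% against Gad1 cortical cells. Of 19 astrocyte markers measured 0 were at least 2-fold higher and 18 lower (median -3.63, -2.44 without cortical cell 7 and -2.07 without cells 6, 7 and 11). Their summed level was 581 to 1393 CPM in hippocampal cells and 36.5 to 23600 CPM in cortical cells. Gja1 was at 0 in all hippocampal cells and Gjb6 in all 21 cells, and Aqp4 was at most at 4.94 CPM there and at 973 CPM in a cortical cell. Of 16 astrocyte markers measured against Gad1 cortical cells 1 was higher and 12 lower (median -2.21, and -2.96 without hippocampal cell 2), with a summed level of 36.5 to 5902 CPM in those 6 cells. Microglia markers were at 0 to 36.2 CPM in sum in hippocampal cells, and 1 of 10 was higher and 7 lower (median -3.69, and -2.46 without cortical cell 6). Against the cortical cells basecalled with bcl2fastq2, 2 were higher and 0 lower, with a median of 0.01. Ctss, of microglia, was at 345, 1428 and 1117 CPM in cortical cells 4, 5 and 6, all of 15 days, and at most at 1.14 CPM in hippocampal cells. Mbp, of oligodendrocytes, was at 1028 CPM in cortical cell 11. Mki67 and Top2a, of dividing cells, were at 1025 and 1485 CPM in cortical cell 6. Of 16 markers of division 12 were lower and 2 higher (median -3.15), and without cortical cells 6, 7 and 11 the median was 0.02. The Gad1 cortical cells hold such transcripts too, with 80% and 70% of the astrocyte markers detected in cells 5 and 12. The part of these transcripts in the differences above was not tested. Without hippocampal D cells 2 and 3 the cholesterol, axon growth, potassium channel and ribosomal medians against all cortical cells were 2.174, -2.02, 1.49 and -1.79 in that order. Without the cortical cells with under 3000 genes they were 2.05, -1.49, 1.28 and -1.53.

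Genes that bear on strain (Nnt) and sex (Xist and Ddx3y) were read in each cell. No strain was assigned from Nnt, and a level of 0 was not told apart from missed detection. Nnt, a mitochondrial transhydrogenase with a known deletion in one C57BL/6 substrain, was at 9.18 to 104 CPM in hippocampal cells and at 0 to 37.2 CPM in cortical cells (log2 ratio 3.57). Xist, of the inactive X chromosome, was at 235 and 157 CPM in hippocampal cells 5 and 8 and at 251 and 3067 CPM in cortical cells 7 and 11. Ddx3y, of the Y chromosome, was at 27.8 CPM in hippocampal cell 6 and at 247, 46.4 and 42.3 CPM in cortical cells 4, 3 and 6. Each region thus held cells with either transcript, and no cell had both above 10 CPM.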

How the data were processed

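Single cells were sequenced by the submitters with a stranded protocol on polyA RNA. The deposited values are whole-number read counts per gene, made by the authors with STAR and HTSeq on mm10 per the submitters' processing notes. Neither the versions of these tools nor the strand setting is stated in the labels. Libraries of 1 cell were summed, which gave 8 hippocampal and 13 cortical cells with 2953361 to 34292582 counts. Counts were summed per region and scaled to CPM, and a log2 ratio with 1 CPM added was taken for genes with 10 counts or more in all and a count in at least 3 cells. Detection was scored after thinning to 1000000 counts. The members and gene lists were chosen with earlier results of these data known. Named genes had 10 CPM or more in a region and a 2-fold difference of 1 sign in summed CPM and in mean cell CPM, and against all cortical cells also at 15 days and with bcl2fastq2 cells, and were ranked by the share of cell pairs, with 10 a direction (8 against Gad1 cortical cells), predicted genes passed over. Genes shown for a list were taken from that list, and some are not reported here. The GABA and glutamate genes, Nnt, Xist and Ddx3y were read in every cell. Python 3.11.15, pandas 2.3.3, scipy 1.17.1, edgeR 4.0.16 (TMM factors only) and DESeq2 1.42.0 (size factors only) were used. No test was run. Alternatives were other scalings, cells of 1 age or basecaller, and leaving out each cell. Simulated cells were drawn from a shared mean profile for 13485 genes, with a fixed spread between cells that was not fitted to these data. Genes with a mean of 10 CPM or more were scored. The direction was recovered for 91% of genes made 2-fold different and 100% of those made 4-fold different. Only 41.8% of the former passed 2-fold, and so did 15.9% of 8390 genes left unchanged. These shares hold for that setting and give no chance rate for the counts above.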

Additional observations from a re-analysis of the deposited data

Results flagged for a closer look

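Within a group, 6 of 39 checks found 1 cell far from the others by Dixon's criterion. Chance meets it in about 1 group in 20 where values are independent and normally spread. That was not shown for CPM of single cells, so the 6 are not read against this rate. In hippocampal cell 3, a D cell, 3 genes were lowest by a wide gap. Flrt2 was at 234.8 CPM there and at 612 CPM or above in the other 7 hippocampal cells. Reln was at 168.4 CPM against 1137 CPM or above, and Nsdhl at 40.39 CPM against 121.4 CPM or above. Meis2 was at 4.242 CPM in hippocampal cell 1 and at 0.2634 CPM or less in the other 7. Tspan17 was at 1.052 CPM in cortical cell 12 and at 0.2041 CPM or less in the other Gad1 cortical cells. The 50 most abundant genes held 39.41% of the counts of cortical cell 13, and 12.35% to 21.86% in the other Gad1 cortical cells.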

How the results depend on the processing

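The cause of the shifts below was not tested. Genes at least 2-fold higher and lower against all cortical cells numbered 7065 and 674 in mean log2 levels and 1425 and 6965 with DESeq2 factors, and 2572 were higher with TMM factors. Among cortical cells of 15 days, 6431 were higher without cortical cell 4 and 2203 lower without cell 6. With any 1 cell left out, 3903 to 4472 were higher and 3143 to 3482 lower. Against Gad1 cortical cells, 730 were lower in mean log2 levels, 4178 with TMM factors, 2677 higher and 5548 lower with DESeq2 factors, and 7590 higher and 1687 lower at 15 days. With any 1 cell left out, 4533 to 5638 were higher and 2345 to 2639 lower. Medians of at least 1 in size that changed sign against all cortical cells follow. With DESeq2 factors they were -0.5252 for neuron markers, -0.3993 for AMPA receptors, -0.08725 for potassium channels, -0.4511 for presynaptic and -0.5038 for postsynaptic genes. Caudal eminence genes were at 0.06211 in mean log2 levels, 0.1033 without the deepest cells, 0.6031 at 15 days and 2.104, 1.113 and 0.3593 there without cells 4, 5 and 6. Immediate early genes were at 0.03245 at 15 days (also without cell 5 or 6) and 0.09462 without cell 4. Field markers were at 0.06418 at 15 days without cell 4 and 0.01081 with Gad1 at 50 CPM or more in both groups, where dividing cell markers were at 0.814. The latter were at 0.01538 without cells with more astrocyte than neuron markers detected, and microglia markers at 0.008157 with bcl2fastq2 cells. In the Gad1 comparison, DESeq2 factors gave -0.5758 for neuron markers and -0.2407 for glycolysis. Smaller medians turned as well with these factors, to -0.8047 for respiratory chain, -1.071 for GABA receptor, -1.035 for medial eminence, -1.366 for glycolysis and -0.7712 for sodium channel genes against all cortical cells, among others. The Gad1 comparison gave -0.557 for presynaptic, -0.8081 for postsynaptic, -0.7823 for respiratory chain, -0.6772 for AMPA and -0.8532 for GABA receptor genes, among others. With bcl2fastq2 cells, oligodendrocyte precursor, microglia and endothelial markers were at 0.4511, 0.2646 and 0.3097. Without the J6 pair, which is cortical cell 5, they were at 0.3403, 0.3146 and 0.3082, and with any 1 cell left out their lowest values were -2.356, -2.68 and -2.395. At 15 days Ccnd2 was at 0.4699 and immediate early genes at 0.55. Without cortical cells under 3000 genes, an alternative chosen after seeing the data, 3845 were higher and 3496 lower. A comparison of cells under 50 CPM of Gad1 was not run, since no hippocampal cell is. Of the alternative values, 2619 against all and 1946 against Gad1 cortical cells stayed within their limits, 141 and 110 moved, and 20 and 13 of at least 1 in log2 size changed sign. No paired analysis was possible because the result comes from no test. Levels under 3 counts (0.0341 CPM in the hippocampal sum) were not resolved.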
